A study of Rattus norvegicus with 6 samples.

Results

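The genes described here encode enzymes that attach ADP-ribose to proteins, together with Dtx3l, the ubiquitin ligase that binds the PARP9 protein. Members were taken as the rows of the deposited count table whose symbol is Parp9, Parp14, Dtx3l, Parp10, Parp12, Parp1, Parp2, Parp3, Parp4 or Parp6. All 10 were found among 20609 rows, and all 10 had enough counts for a test. Parp9, Parp14, Dtx3l, Parp10 and Parp12 are linked to interferon and were set against the other 5. The libraries were poly-A RNA from cells labelled as the rat pheochromocytoma line PC12, 3 transfected with a control plasmid (Ctrl) and 3 made to overexpress PCBP-1 (PCBP1-OE). The methods describe an EGFP-tagged PCBP-1 plasmid, so EGFP came with PCBP-1, and the tag of the control plasmid is not given in the sources used here. In the methods the plasmid was lipofected, while the abstract calls the overexpression constitutive and the introduction calls it stable. Which of these holds for the sequenced cells is not stated in the paper. The replicates are called biological in the paper, but whether they came from separate cultures or transfections is not given there or in the labels. The p-values measure the spread between these libraries, which may in that case be technical.

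Poly-ADP-ribose polymerases take NAD as substrate. PARP1, PARP2 and PARP3 are switched on by DNA strand breaks. Most of the others add a single ADP-ribose unit, and PARP9, PARP10, PARP12 and PARP14 are known as products of interferon-stimulated genes that act against viruses. Interferon signalling acts through STAT2 and IRF9 in a complex that binds a DNA element called the ISRE, and a second interferon element is called GAS.

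Libraries held 19730209 to 22315623 counts on genes. Levels are given as CPM, counts scaled to a common library size, after TMM scaling, and they are compared between libraries and not between genes, since gene length was not used. The members had 228 to 3663 counts per library, for which counting error alone is 6.62% to 1.65% of the value. No gene of the table was matched to Pcbp1, so the overexpression was not checked. The label PC12 was checked against chromaffin markers. Th, the first enzyme of catecholamine synthesis, had 141 to 185 counts per library, but Dbh had 0 to 5, Chga 0 to 3 and Chgb 0 to 9. Sox10, a transcription factor of glial lineages, was at 361.9 to 408.0 CPM, and Pdgfra, a growth factor receptor, at 195.2 to 225.6 CPM. Slc18a1, the monoamine transporter of the granules, had 17 to 28. Dbh, Chga and Chgb were therefore at or near 0 in all 6 libraries, against the label, while Th and Slc18a1 were detected at low counts. Both Sox10 and Pdgfra were lower in every PCBP1-OE library than in every Ctrl library, with log2 fold changes of -0.12 (adjusted p = 0.0790, edgeR) and -0.14 (adjusted p = 0.0644, edgeR). Gfap, a glial marker, and Cd68, a leukocyte marker, were lower in this way too, and Slc18a1 was higher. Over all genes tested, 16.5% were lower in this way and 14.1% higher. Of all 8 markers tested DESeq2 called 1, Pdgfra, beside 13.3% of all genes to which it gave an adjusted p. The summed level of 6 matched chromaffin markers was 8.47 to 9.87 CPM in Ctrl and 8.62 to 9.90 CPM in PCBP1-OE. The summed level of the 3 glial markers was 401.5 to 421.1 CPM in Ctrl and 373.6 to 386.7 CPM in PCBP1-OE, and that of 4 matched leukocyte markers, with Ptprc at 0 to 3 counts, was 3.98 to 4.07 and 3.0 to 3.52 CPM. Of 3 matched fibroblast markers the sum, nearly all of it Pdgfra, was 223.6 to 228.7 and 198.9 to 211.0 CPM, with Dcn at 0 to 5 counts. Their part in the results was not tested.

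The promoter sequences of the members were searched for the ISRE and GAS elements, whether or not the member rose. Stretches with an ISRE match are shown, and a link between the elements and the levels was not tested. RefSeq promoters of GRCr8, from 250 bases before to 50 after each start, were matched for 9 of the 10 members, and Parp10 had no entry. The ISRE core GAAANNGAAA was searched on both strands and found in 4 of these 9 promoters, against 3.92% of all 33469 promoters of the same length. The stretches around the matches, in the direction of each gene and with the match in capitals, were as follows.
Parp14 (chr11:78408028-78408097, plus strand): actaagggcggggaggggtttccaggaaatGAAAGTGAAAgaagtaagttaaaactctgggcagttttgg
Dtx3l (chr11:78320205-78320274, plus strand): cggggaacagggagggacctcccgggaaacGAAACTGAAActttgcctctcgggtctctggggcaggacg
Parp12 (chr4:68850520-68850589, minus strand): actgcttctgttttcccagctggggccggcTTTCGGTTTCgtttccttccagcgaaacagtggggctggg
Parp4 (chr15:34805979-34806054, plus strand): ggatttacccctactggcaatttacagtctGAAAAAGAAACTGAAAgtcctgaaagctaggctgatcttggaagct
Counted from the start of the gene, with bases before it negative, the match began at -76 in Parp14, at 10 in Dtx3l and at -18 in Parp12, there on the opposite strand. Parp4 held a pair of overlapping matches that began at -194 and -188. The GAS element TTCNNNGAA reads the same on both strands. It was found in 1 of the 9 promoters, that of Parp14, beginning at -87 and clear of the ISRE core, and in 8.87% of all promoters. The windows of Parp9, Parp1, Parp2, Parp3 and Parp6 held neither motif, which says only that these letters are not in these windows. Of the members with an ISRE core, Parp14, Dtx3l and Parp12 rose and Parp4 did not pass. Parp9 rose without one in the window searched. That window holds 1 start of Parp9, and its gene span overlaps that of Dtx3l, as given further below. Any other start of Parp9 was not searched. The same search of Tiparp, Zc3hav1, Stat2 and Irf9, read further below, found no ISRE core, and the GAS element in Irf9 alone.

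Of the 5 interferon-linked members, 4 rose in PCBP1-OE at an adjusted p of 0.05 or less, and 0 fell. Over all 12624 genes tested, the same edgeR quasi-likelihood test called 9.45%, with 4.45% higher and 5.0% lower (562 and 631 genes, or 655 and 427 under upper-quartile scaling). Of the other 5 PARPs, 0 passed with edgeR, 0 had an unadjusted p under 0.05, and 0 passed with DESeq2 or limma-voom. Over all genes, 28.4% had an unadjusted p under 0.05, DESeq2 called 13.3% of the 10664 genes to which it gave an adjusted p, and limma-voom called 9.48%. The median log2 fold change was 0.33 for the interferon-linked members, -0.05 for the other PARPs and 0.0029 over all genes tested. No member reached the 2-fold change that the study required of a differentially expressed gene, and 0.190% of genes tested both passed and reached it. The groups did not overlap, with PCBP1-OE higher, in 4 of the 5 interferon-linked members, against 14.1% of all genes tested, and with PCBP1-OE lower in 1 of the other 5, against 16.5%. Members were chosen with earlier results of these data known, and Parp9, Dtx3l and Parp14 are neighbours at 1 locus. The shares over all genes are therefore a background and not a test of the members.

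**Figure D1:**
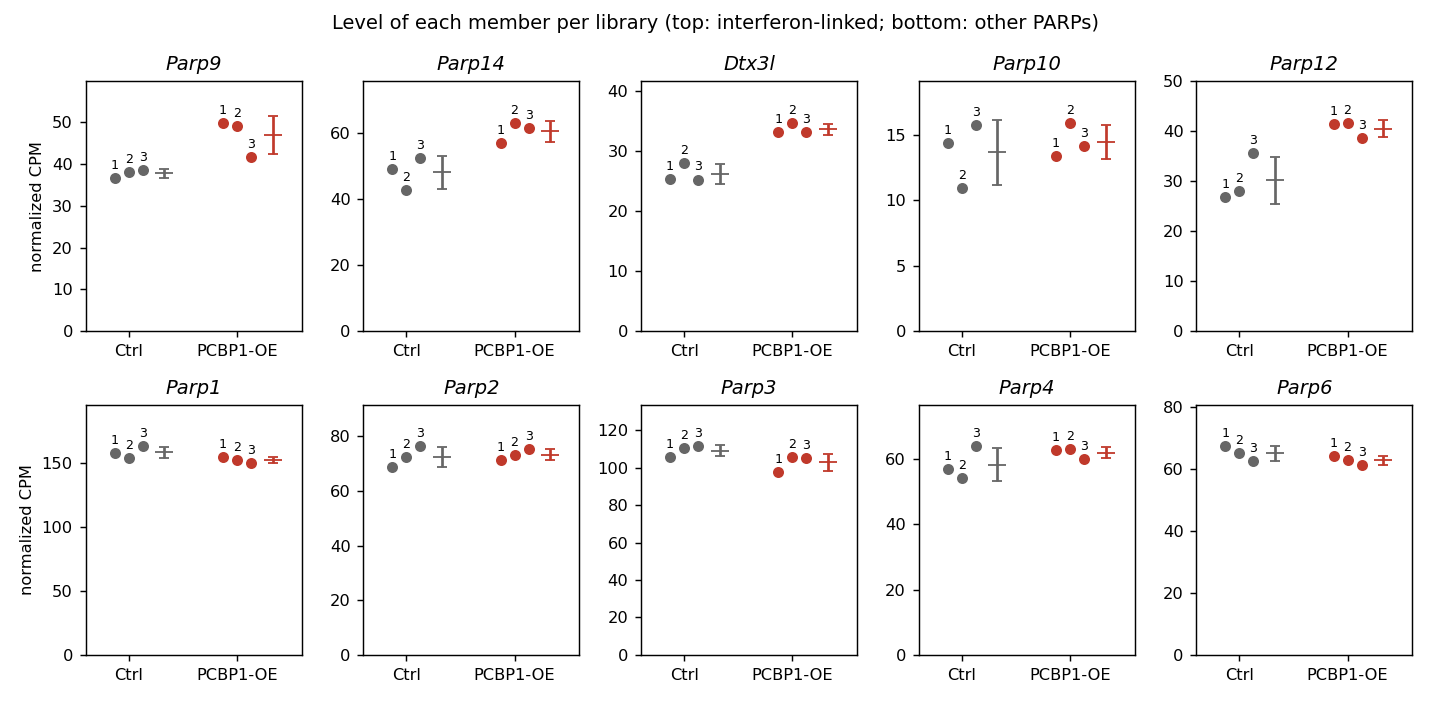
Normalized CPM (linear axis from 0) of the 10 members in each library, with replicate numbers beside the points and the mean ± SD (n = 3) at the right of each group. In Parp9, Parp14, Dtx3l and Parp12 every PCBP1-OE point lies above every Ctrl point, with Parp9 in PCBP1-OE replicate 3 at 41.7 nearest to its Ctrl points.

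Parp9 (ENSRNOG00000023463, chromosome 11) encodes a PARP with macrodomains that works as a partner of DTX3L. Its level was 36.7, 38.1 and 38.7 CPM in Ctrl replicates 1 to 3 and 49.9, 49.2 and 41.7 CPM in PCBP1-OE replicates 1 to 3. The PCBP1-OE libraries were all higher, with replicate 3 only slightly above the Ctrl values. The means were 37.8 ± 1.05 and 47.0 ± 4.55 (SD, n = 3 each), so PCBP1-OE was 1.24-fold Ctrl, a log2 fold change of 0.31 (SE 0.07, adjusted p = 0.0220 by edgeR's quasi-likelihood test, Benjamini-Hochberg).

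Dtx3l (ENSRNOG00000023400, chromosome 11) encodes the E3 ligase of that complex. It was at 25.3, 28.1 and 25.3 CPM in Ctrl and 33.2, 34.7 and 33.1 CPM in PCBP1-OE. The gap between the groups was wider than the spread within either group. Its means were 26.2 ± 1.61 and 33.7 ± 0.919 (SD, n = 3 each), with a log2 fold change of 0.36 (SE 0.07, adjusted p = 0.0126, same edgeR test).

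Parp14 (ENSRNOG00000023334, chromosome 11) encodes a large macrodomain PARP that modifies proteins with single ADP-ribose units. Ctrl libraries held 48.9, 42.7 and 52.4 CPM and PCBP1-OE libraries 56.8, 63.0 and 61.3 CPM. Ctrl replicate 3 and PCBP1-OE replicate 1 were the closest values across the groups. Its means were 48.0 ± 4.91 and 60.4 ± 3.20 (SD, n = 3 each), with a log2 fold change of 0.33 (SE 0.07, adjusted p = 0.0185, same edgeR test).

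Parp12 (ENSRNOG00000008196, chromosome 4) encodes a PARP with CCCH zinc fingers that bind RNA. It was at 26.9, 28.0 and 35.6 CPM in Ctrl and 41.3, 41.7 and 38.5 CPM in PCBP1-OE. Ctrl replicate 3 stood well above the other controls and yet below each PCBP1-OE library. Of the 10 members it had the largest log2 fold change, 0.42 (SE 0.09, adjusted p = 0.0191, same edgeR test), from means of 30.2 ± 4.77 to 40.5 ± 1.72 (SD, n = 3 each), a ratio of 1.34.

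Parp10 (ENSRNOG00000004361, chromosome 7), which encodes an enzyme that adds single ADP-ribose units and carries ubiquitin-interaction motifs, was the interferon-linked member that did not pass. It was at 14.3, 10.9 and 15.7 CPM in Ctrl and 13.3, 15.9 and 14.1 CPM in PCBP1-OE. The groups overlapped, and Ctrl replicate 2 was the lowest library. Its log2 fold change was 0.08, with a 95% interval from -0.20 to 0.36 (adjusted p = 0.732, same edgeR test), so a change as large as that of Parp9 lies within its interval. Without Ctrl replicate 2 the estimate was -0.05.

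Whether the 4 members passed changed with the library left out, though each estimate stayed above 0 in all 13 alternatives tried. Parp9 ranged from 0.26 to 0.40 on the log2 scale, Parp14 from 0.26 to 0.40, Dtx3l from 0.33 to 0.42 and Parp12 from 0.35 to 0.56. Without Ctrl replicate 1 none of the 4 passed (adjusted p = 0.0774 for Parp9, 0.0521 for Parp14, 0.0505 for Dtx3l and 0.0758 for Parp12). Without Ctrl replicate 2 only Dtx3l passed (0.0455), with Parp9 at 0.0958, Parp14 at 0.0815 and Parp12 at 0.113. Without PCBP1-OE replicate 1 only Parp14 passed (0.0445), with Parp9 at 0.111, Dtx3l at 0.0569 and Parp12 at 0.0926. Without PCBP1-OE replicate 2 none passed (0.0946, 0.0846, 0.0675 and 0.0829 for Parp9, Parp14, Dtx3l and Parp12). All 4 passed without Ctrl replicate 3 and without PCBP1-OE replicate 3. Over all genes, these 6 fits called 48 to 2860, against 1193 in the main fit. Each of the 6 has fewer samples than the main fit, and the cause of the lost calls was not tested.

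**Figure D2:**
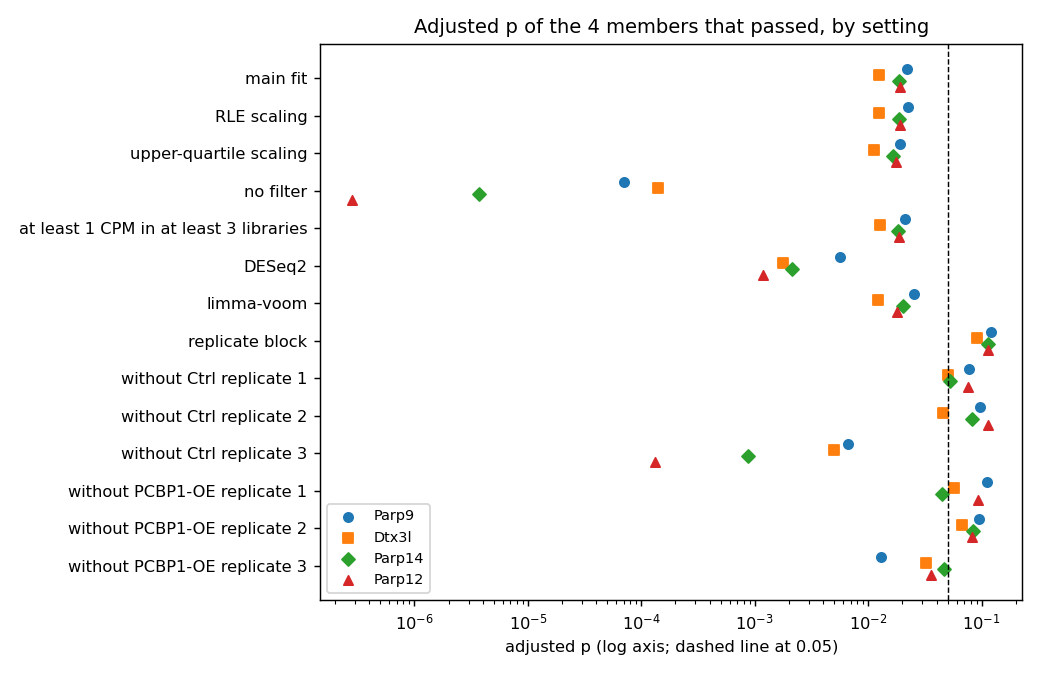
Adjusted p (log axis, dashed line at 0.05) of Parp9, Dtx3l, Parp14 and Parp12 in the main fit and in each of 13 alternatives. The points lie left of the line under each other scaling, filter and tool, and right of it with the replicate block and for most members in 4 of the 6 fits that leave out a library.

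Parp1 (ENSRNOG00000003084, chromosome 13), the main sensor of DNA strand breaks, was at 158.0, 154.4 and 163.3 CPM in Ctrl and 154.8, 152.9 and 150.6 CPM in PCBP1-OE. The groups overlapped, and the log2 fold change of -0.05 had a 95% interval from -0.15 to 0.04 (adjusted p = 0.446, edgeR's quasi-likelihood test). Parp2 (ENSRNOG00000008892, chromosome 15), which shares that role, was at 68.7, 72.4 and 76.3 CPM in Ctrl and 71.3, 73.0 and 75.4 CPM in PCBP1-OE, with every PCBP1-OE value inside the Ctrl range. Its log2 fold change was 0.01, with an interval from -0.10 to 0.13 (adjusted p = 0.883, same edgeR test). For both genes the upper bound of the interval lay below the estimate for each of the 4 members that rose.

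Parp3 (ENSRNOG00000012865, chromosome 8), another PARP of DNA break repair, was at 106.0, 110.3 and 111.4 CPM in Ctrl and 97.8, 105.5 and 105.4 CPM in PCBP1-OE. Every PCBP1-OE library was lower than every Ctrl library, by as little as from 106.0 to 105.5 CPM. The log2 fold change of -0.09 (interval -0.19 to 0.01) did not pass (adjusted p = 0.241, same edgeR test). Parp6 (ENSRNOG00000011199, chromosome 8), an enzyme that adds single ADP-ribose units, was at 67.2, 65.2 and 62.5 CPM in Ctrl and 64.2, 62.7 and 61.2 CPM in PCBP1-OE. Its groups overlapped, with a log2 fold change of -0.05 (interval -0.16 to 0.06, adjusted p = 0.552, same edgeR test).

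Parp4 (ENSRNOG00000051196, chromosome 15), the PARP of vault particles, was at 56.9, 54.1 and 63.9 CPM in Ctrl and 62.9, 63.2 and 59.9 CPM in PCBP1-OE. Ctrl replicate 3 was the highest of the 6 libraries, so the groups overlapped. Its log2 fold change was 0.09 (interval -0.05 to 0.22, adjusted p = 0.381, same edgeR test). Without Ctrl replicate 3 it was 0.16 and passed, at 0.0480. Its promoter holds the overlapping ISRE cores printed above.

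**Figure D3:**
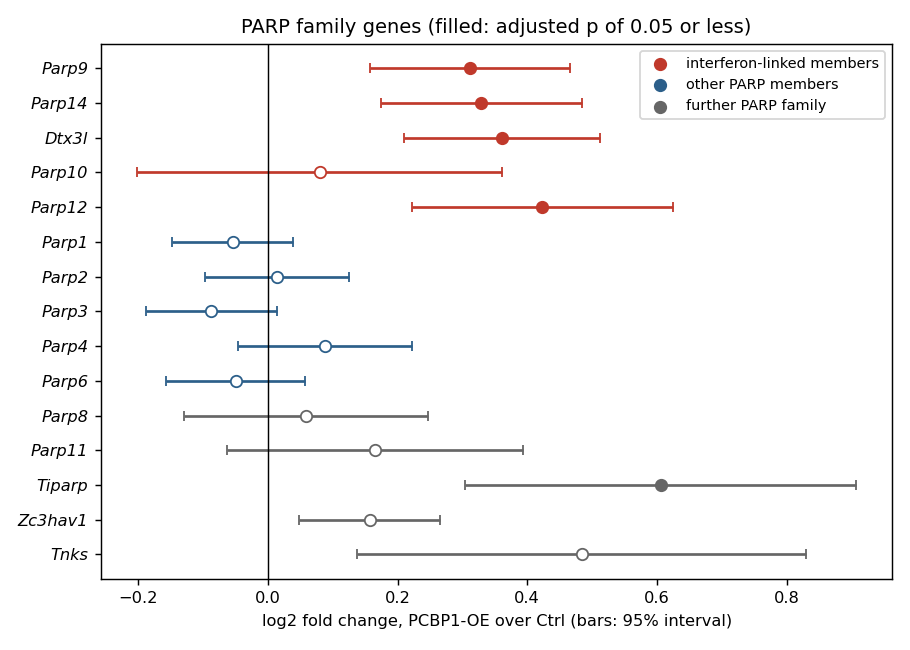
Log2 fold change of PCBP1-OE over Ctrl with its 95% interval from edgeR for the 10 members and the 5 further PARP family genes tested, filled where the adjusted p is 0.05 or less. Filled points are Parp9, Parp14, Dtx3l, Parp12 and Tiparp, and the intervals of Parp10 and of the 5 other PARPs span 0.

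Ratios of 2 members within 1 library need no scaling between libraries. For each of the 25 pairs of an interferon-linked and another member, the log2 ratio of counts with 0.5 added was compared between groups. It was higher in all 3 PCBP1-OE libraries than in all 3 Ctrl libraries in 19 of 25 pairs and lower in 0. Among the ratios of every tested gene to these 5 PARPs, 16.7% were higher in this way. The 19 pairs were those of Parp14, Dtx3l and Parp12 with each of the 5 and of Parp9 with Parp1, Parp2, Parp3 and Parp6. Pairs share members, so they are not independent. Each of the 19 had p = 0.1 in a two-sided exact permutation test, the smallest that 3 against 3 allow, and 0.132 after adjustment over the pairs, so none could pass 0.05. The ratio of Dtx3l to Parp3 was -2.07, -1.97 and -2.14 on the log2 scale in Ctrl and -1.56, -1.60 and -1.67 in PCBP1-OE, a difference of 0.45. For Parp10 the 5 differences were 0.0032 to 0.18, and the groups overlapped in each.

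Parp9, Dtx3l and Parp14 are direct neighbours on chromosome 11 in RefSeq's GRCr8. Parp9 and Dtx3l lie head to head. Their gene spans over all RefSeq transcripts overlap by 185 bases in that build, although the starts used for the promoters above lie apart. The counts were made on Rnor_6.0 with an annotation that is not given, so whether the counted spans overlap is not known. The paper describes strand-specific libraries, but the strand setting of the counting is not given. The split of any reads from an overlap is therefore uncertain. The log2 ratio of Parp9 to Dtx3l counts was 0.54, 0.44 and 0.61 in Ctrl and 0.59, 0.50 and 0.33 in PCBP1-OE. The groups overlapped, and the difference of -0.06 was smaller than the SD within either group, 0.086 and 0.13 (p = 0.6 in a two-sided exact permutation test that cannot go below 0.1). The nearest 5 protein-coding genes on each side were then added after the members' values were seen. Of these 10 genes 8 were matched and tested. With edgeR 0 of the 8 passed, 1 had an unadjusted p under 0.05, and DESeq2 and limma-voom each called 0. With 9.45% of all genes called and 28.4% at an unadjusted p under 0.05, such counts among 8 genes are near the background. Kpna1, the nearest gene beside Parp9 and a nuclear import receptor, had a log2 fold change of 0.10 (SE 0.06, adjusted p = 0.320, same edgeR test). Hspbap1, the nearest beside Parp14, was at -0.01 (SE 0.08, adjusted p = 0.947). The lowest of the 8 was Pdia5, a protein disulfide isomerase, at -0.26 (SE 0.09, adjusted p = 0.0865).

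**Figure D4:**
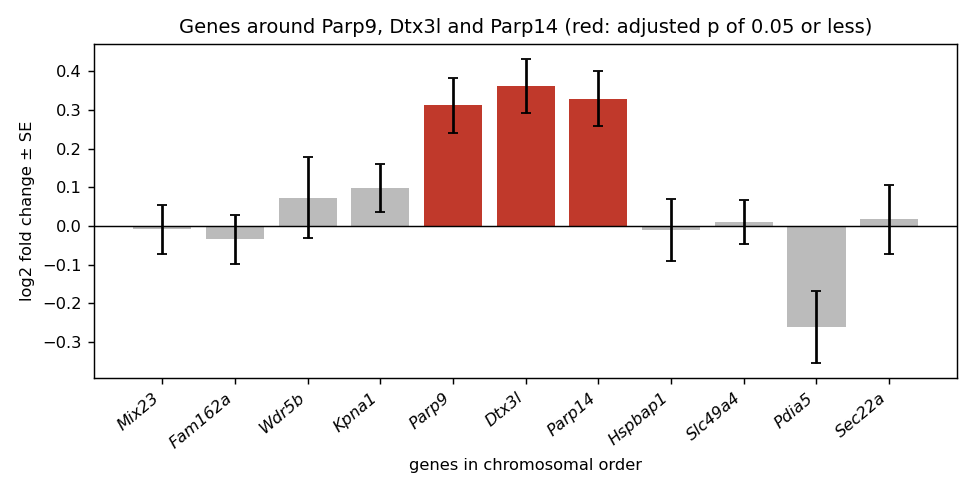
Log2 fold change ± SE from edgeR for Parp9, Dtx3l, Parp14 and the 8 tested genes among their 10 nearest neighbours, in chromosomal order with no distances drawn. The 3 red bars at 0.31 to 0.36 are the members, and the grey bars lie between -0.26 and 0.10.

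Correlations between members were also computed. Over the 6 libraries, Pearson's r of log2 CPM between interferon-linked members ranged from 0.072 (Dtx3l with Parp10) to 0.884 (Parp14 with Parp12), with a median of 0.728 over 10 pairs. Between the other PARPs it ranged from -0.898 to 0.453, with a median of 0.132 over 10 pairs. Across the sets it ranged from -0.816 (Dtx3l with Parp1) to 0.85 (Parp12 with Parp4), with a median of -0.309 over 25 pairs. Parp4 had an r of 0.361 (Dtx3l) to 0.85 with the interferon-linked members, so varying together was not particular to that set. The 6 points fall into the compared groups and share scaling, so these values are a description. The genes outside the members most like Parp9 by this measure, among 9581 tested genes with a mean of at least 100 counts, were Ammecr1l (r = 0.991), March5 (0.986), Ipp (0.985), Rab23 (0.983) and Nop14 (0.982). Of these 9581 genes 248 had an r above 0.9. The log2 fold changes of these 5 genes were smaller than that of Parp9, from 0.12 for Nop14 to 0.22 for Ipp, and only March5, a ubiquitin ligase of the mitochondrial membrane, passed (0.19, adjusted p = 0.0373, same edgeR test). It did not pass without Ctrl replicates 1 (0.0944) or 2 (0.124) or PCBP1-OE replicates 1 (0.130) or 2 (0.141).

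Among 7 further PARP family genes, 6 were matched and 5 tested, of which 1 rose and 0 fell, beside 4.45% and 5.0% of all genes, with a median log2 fold change of 0.17. Tiparp, which encodes PARP7, an enzyme induced by the aryl hydrocarbon receptor, was at 12.6, 10.8 and 17.0 CPM in Ctrl and 22.1, 21.1 and 18.4 CPM in PCBP1-OE. The groups did not overlap, and the log2 fold change of 0.61 (SE 0.14, adjusted p = 0.0221, same edgeR test) was above that of each of the 10 members. It did not pass without Ctrl replicates 1 (0.0944) or 2 (0.122) or PCBP1-OE replicates 1 (0.115) or 2 (0.0881). Zc3hav1, the antiviral zinc finger protein PARP13, was at 160.1, 164.6 and 179.3 CPM in Ctrl and 183.0, 192.8 and 186.4 CPM in PCBP1-OE, also without overlap. Its log2 fold change was 0.16 (SE 0.05, adjusted p = 0.0656), and that of Tnks, a tankyrase of telomeres and Wnt signalling, 0.48 (SE 0.16, adjusted p = 0.0718, both by edgeR). DESeq2 called 3 of the 5, beside 13.3% of all genes, and limma-voom 1, beside 9.48%. Parp8 was at 0.06 (SE 0.09, adjusted p = 0.703, same edgeR test) and Parp11 at 0.17 (SE 0.11, adjusted p = 0.327). Parp16, with 0 to 1 counts per library, was left out by the filter, and no row was matched to Tnks2.

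Irf9 and Stat2, which act on the ISRE, were read beside the members. Irf9, its DNA-binding part, was at 23.0, 23.0 and 25.2 CPM in Ctrl and 29.3, 38.8 and 35.0 CPM in PCBP1-OE. The groups did not overlap, and Irf9 rose by a log2 fold change of 0.53 (SE 0.10, adjusted p = 0.00978, same edgeR test). It did not pass without Ctrl replicate 2 (0.0692) or PCBP1-OE replicate 2 (0.0551). Stat2, its partner, was at 48.5, 54.1 and 55.9 CPM in Ctrl and 55.7, 60.3 and 57.4 CPM in PCBP1-OE. Its groups overlapped, with a log2 fold change of 0.13 (SE 0.06, adjusted p = 0.188, same edgeR test).

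The genes that supply or remove ADP-ribose and those that work with PARP1 are read against the shares over all genes, 9.45% called and 28.4% with an unadjusted p under 0.05. At these list sizes a count of 0 or 1 called is near the background. Of 3 Deltex ligases tested beside Dtx3l (Dtx2, Dtx3 and Dtx4), 0 passed with edgeR, DESeq2 or limma-voom and 0 had an unadjusted p under 0.05, with log2 fold changes from -0.14 to -0.0090. Of 5 genes of ADP-ribose removal tested, 0 passed with any of these tools and 0 had an unadjusted p under 0.05, with log2 fold changes from -0.11 to 0.054. Of 8 NAD supply genes tested, 0 passed with any of them and 1 had an unadjusted p under 0.05, Nampt, the rate-limiting enzyme of NAD salvage, at 0.13 (SE 0.05, adjusted p = 0.0916, edgeR's quasi-likelihood test). Of 9 strand-break repair partners of PARP1, 0 rose and 1 fell with edgeR and limma-voom, and DESeq2 called 0. With edgeR 3 of the 9 had an unadjusted p under 0.05, beside 28.4% of all genes. The groups did not overlap in 2 with PCBP1-OE lower and in 1 with it higher, beside 16.5% and 14.1% of all genes tested. Xrcc1, the scaffold recruited by ADP-ribose at breaks, was at 67.2, 67.8 and 66.5 CPM in Ctrl and 57.3, 61.4 and 59.5 CPM in PCBP1-OE. All 3 PCBP1-OE libraries were below all 3 Ctrl libraries, with a log2 fold change of -0.18 (SE 0.05, adjusted p = 0.0393, same edgeR test). It did not pass without Ctrl replicates 1 (0.0942) or 2 (0.143) or PCBP1-OE replicates 1 (0.146), 2 (0.0846) or 3 (0.0744), nor under upper-quartile scaling (0.0572) or DESeq2 (0.0531). Hpf1, the factor that directs PARP1 to serine, was at -0.19 (SE 0.06, adjusted p = 0.0644, edgeR). Polb, the gap-filling polymerase of base excision repair, lay on the other side, at 0.23 (SE 0.09, adjusted p = 0.123, edgeR), with every PCBP1-OE library above every Ctrl library.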

How the data were processed

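Poly-A RNA-seq libraries of 3 Ctrl and 3 PCBP1-OE samples were assigned by their titles. The authors deposited raw counts per gene. Their methods name FASTX-Toolkit, TopHat2 with up to 4 mismatches on Rnor_6.0, and counting of uniquely mapped reads. The labels list a human build instead, although the gene identifiers are rat, and they name a different library kit from the methods. Which tool counted the reads, with which strand setting and annotation, is not given in the sources used here.

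Genes were filtered with filterByExpr of edgeR 4.0.16 (minimum count 10, minimum total 15), which left out 7985 of 20609 rows, scaled by TMM and tested with edgeR's quasi-likelihood test in R 4.3.3, with Benjamini-Hochberg adjustment over the 12624 genes tested. A call is an adjusted p of 0.05 or less. The pipeline was tested on simulated data. The alternatives comprised scaling by RLE or upper quartile, no filter, at least 1 CPM in 3 libraries, DESeq2 1.42.0, limma-voom 3.58.1, the replicate block, and each library left out. Ratios used exact permutation tests (scipy 1.17.1). Log2 CPM for correlations had a prior count of 2.

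Members and lists were chosen with earlier results of these data known. Named are all members, list genes that were called, the other PARP family genes with Stat2 and Irf9, and the 5 genes most like Parp9. A result of the interferon signalling list is not reported here. Hpf1, Polb, Nampt, Kpna1, Hspbap1, Pdia5, Dtx1, Gfap and Cd68 were named after their values were seen. Gene symbols were matched directly or by a RefSeq synonym. Between replicates the chi-square statistic per gene was 5.85 to 17.2, above what sampling noise gives.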

Additional observations from a re-analysis of the deposited data

How the results depend on the processing

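Under RLE scaling, upper-quartile scaling, no filter, the filter of 1 CPM, DESeq2 and limma-voom, 4 interferon-linked members and 0 other PARPs passed, as in the fit reported. With the replicate block 0 interferon-linked members, 0 genes of the further lists and 16 genes in all passed. Whether same-numbered libraries were made as pairs is not given in the sources used here. Same-numbered libraries deviated from their group means with correlations of -0.0776, -0.0514 and -0.0428. Such values cannot settle how the libraries were made, so the calls lost under the block stand as a limit of the calls reported. With no filter, 10 genes of the further lists and 2090 genes in all passed, against 4 and 1193. With each library left out, 0 to 4 interferon-linked members, 0 to 1 other PARPs, 1 to 9 genes of the further lists and 48 to 2860 genes in all passed. The causes were not tested, and a fit without a library has fewer samples. The median log2 fold change of the interferon-linked members was 0.30 to 0.38 over all 13 alternatives. The log2 ratio of Parp9 to Dtx3l differed by -0.11 to 0.015 with a library left out, turning positive without PCBP1-OE replicate 3. With a library left out, the log2 fold change of Parp10 was -0.053 to 0.20 and that of Parp2 -0.016 to 0.053, negative without Ctrl replicate 2 and Ctrl replicate 1 respectively, and neither gene passed in any alternative. Alternatives for the further lists and March5, and a pseudocount of 0 for the pairs, which gave 19 again, were chosen after seeing the data. Lists and genes with few counts are limited by depth.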

Other observations

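Dtx1, a Deltex ligase of Notch signalling, had too few counts for the filter of the main fit. It was counted 4, 3 and 5 times in Ctrl and 7, 12 and 21 times in PCBP1-OE, so every PCBP1-OE library was above every Ctrl library. Of all genes tested in the main fit, 14.1% were higher in this way. The fit with no filter included Dtx1, and its value there is not given here.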
